A study of Mus musculus with 6 samples.

Results

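A set of 10 genes listed under insulin receptor and FOXO signaling was followed in liver, chosen by symbol from a table of 17441 genes. It held the insulin receptor Insr, the adaptors Irs1 and Irs2, the PI3K subunit Pik3r1 and the kinases Akt1 and Akt2. It also held the transcription factors Foxo1, Foxo3 and Foxo4, and the pseudokinase Trib1. All 10 of 10 were found and all 10 passed the filter on low counts, as did 13160 genes in all. RNA-seq covered 6 mouse livers, 3 with the WT genotype label and 3 labelled as a tamoxifen-inducible whole-body knockout of Nek7 (iKO), a kinase of mitosis and of the NLRP3 inflammasome. Every liver, WT included, was taken 10 days after tamoxifen, so the treatment is shared by both groups. The sources used here give no strain, sex, age, Cre driver, hour of collection or feeding state. Beyond a number for each liver nothing is said of the animals, so p-values measure the spread between these samples.

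Insulin binds its receptor on the hepatocyte, which phosphorylates IRS adaptors, and these recruit PI3K and thereby activate AKT. AKT phosphorylates FOXO factors and holds them out of the nucleus, so that genes of gluconeogenesis and fasting are switched off after a meal, while SREBP1c and lipid synthesis are switched on. The signal runs mainly through phosphorylation, which RNA-seq does not measure. Trib1 is a scaffold that brings C/EBP proteins to the COP1 ubiquitin ligase and is best known in liver for its influence on lipid synthesis and plasma lipids.

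FOXO factors recognise short T-rich elements in promoters, and the classical insulin response element of liver genes holds one. To show where such letters lie, promoters from RefSeq (build GRCm38.p6, 250 bases before to 50 after a start) were searched on both strands for the FOXO core TGTTTAC or GTAAACA and for the insulin response core TGTTTTG or CAAAACA. The 2 cores share their opening letters, and no window printed here holds both. Of the 10 genes, 7 had an entry, with 12 promoters between them; Insr, Foxo4 and Trib1 had none. The FOXO core was found in 1 of these 7 genes, Akt1, and in 4.05% of all 27025 genes with an entry. A gene was counted if any of its promoters held the core, and Akt1 has a further promoter that does not. The insulin response core was found in 2 of the 7, Irs1 and Irs2, and in 7.20% of all. The Irs1 window held it at 2 positions, starting 111 and 32 bases before the start, and the Irs2 window at 1, starting 37 bases before it. The 250 bases before the start are printed for these 2 adaptors and for Igfbp1 and G6pc, insulin-repressed genes of liver in which the core began 108 and 174 bases before the start. These 2 were picked because they hold it: of 30 genes known to be raised by FOXO factors that had an entry, 4 held the insulin response core and 4 the FOXO core, and Pck1, another insulin-repressed gene, held neither. Capitals mark the core on either strand, and each line runs 5′ to 3′ on the strand of the gene. A match is a description of the letters and not a binding site.
Irs1, chr1:82291440-82291689, minus strand: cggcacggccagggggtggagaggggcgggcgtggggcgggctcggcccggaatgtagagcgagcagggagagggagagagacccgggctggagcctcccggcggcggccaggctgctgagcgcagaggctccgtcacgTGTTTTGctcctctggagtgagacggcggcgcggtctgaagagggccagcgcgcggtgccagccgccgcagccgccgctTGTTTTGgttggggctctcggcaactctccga
Irs2, chr8:11008930-11009179, minus strand: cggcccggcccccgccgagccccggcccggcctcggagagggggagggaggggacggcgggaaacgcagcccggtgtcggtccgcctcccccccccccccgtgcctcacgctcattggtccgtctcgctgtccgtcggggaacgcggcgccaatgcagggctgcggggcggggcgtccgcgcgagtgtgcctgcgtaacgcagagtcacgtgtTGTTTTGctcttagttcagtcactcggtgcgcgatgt
Igfbp1, chr11:7197537-7197786, plus strand: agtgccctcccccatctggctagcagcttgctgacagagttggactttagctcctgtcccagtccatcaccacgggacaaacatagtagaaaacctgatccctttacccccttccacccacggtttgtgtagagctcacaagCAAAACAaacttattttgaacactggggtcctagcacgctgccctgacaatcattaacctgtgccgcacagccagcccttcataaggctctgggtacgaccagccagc
G6pc, chr11:101367466-101367715, plus strand: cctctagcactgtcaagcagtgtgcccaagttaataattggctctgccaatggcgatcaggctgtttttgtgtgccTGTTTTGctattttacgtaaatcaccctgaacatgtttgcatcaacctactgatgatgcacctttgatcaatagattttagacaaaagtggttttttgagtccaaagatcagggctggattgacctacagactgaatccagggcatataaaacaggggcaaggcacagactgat
Of these 4 genes Igfbp1 rose in the livers labelled iKO, and Irs1, Irs2 and G6pc did not pass the test.

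Several properties of the whole set of libraries stand beside every result. Nek7 itself was read at 55.5, 40.5 and 36.4 CPM (a gene's count relative to the library total, scaled with edgeR's TMM factors) in WT 1, 2 and 3 and at 50.2, 32.8 and 31.0 in the livers labelled iKO, and did not pass the test (edgeR's quasi-likelihood test, adjusted p = 0.541). A gene-level count can still hold reads from a transcript with a deleted exon, so this is not a check of the deletion, and the groups are called by their labels. Reads of the Y-linked genes Ddx3y and Kdm5d were at 0 in WT 2 and WT 3 and at 573 to 1113 expected counts in WT 1 and all 3 iKO libraries. Genes with female-biased expression in liver summed to 985 and 1108 CPM in WT 2 and WT 3, 4.02 in WT 1 and 20.6 to 54.6 in iKO. Male-biased genes summed to 383 and 429 CPM in WT 2 and WT 3, 12666 in WT 1 and 6675 to 12883 in iKO. So 2 of 3 WT livers differ from the rest in these ways, and sex and group cannot be told apart except through WT 1. Among all tested genes 7.31% were called higher and 8.07% lower. Of 16 clock genes 9 were called higher and 3 lower, with Dbp at 0.793 to 2.27 CPM in WT and 99.8 to 144 CPM in iKO. Of 10 glucocorticoid response genes 6 were called higher and 0 lower. Hepatocyte markers summed to 106956 to 119799 CPM in WT and 107094 to 121373 CPM in iKO, and 1 of 10 was called. Markers of 4 other cell types were called lower: 7 of 12 of stellate cells (summed 375 to 629 CPM in WT, 188 to 242 in iKO), 5 of 12 of sinusoidal endothelium (272 to 425, then 99.1 to 242), 7 of 12 of Kupffer cells (450 to 846, then 320 to 402) and 5 of 10 of neutrophils (34.5 to 133, then 22.8 to 48.1), with 0 called higher in these 4 lists and no marker at 0 in every library. Cholangiocyte markers went no single way (1 of 8 called lower, 5 of 8 above 0, summed 164 to 255 CPM in WT and 96.2 to 451 in iKO), and of 10 lymphocyte markers 0 were called by edgeR and 1 had an unadjusted p under 0.05 (summed 9.27 to 15.3, then 8.36 to 13.3). Fewer cells of a type and less RNA per cell cannot be told apart in whole liver. The part of sex, clock phase and cell content in the results was not tested. Only the split in Y-linked reads entered fits, once as a term over all 6 libraries and once by keeping only the 4 libraries that hold such reads.

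In the livers labelled iKO, 4 of the 10 genes rose and 0 fell (edgeR, and 0 fell at an unadjusted p under 0.05 or by DESeq2 or limma-voom): Trib1 (2.95-fold), Foxo3 (1.64-fold), Pik3r1 (1.52-fold) and Foxo1 (1.48-fold). Over all tested genes 15.4% were called at an adjusted p of 0.05, with 7.31% higher and 8.07% lower. The receptor, Irs1, both AKT kinases and Foxo4 did not pass the test, with log2 fold changes between -0.23 and 0.19, and Irs2 was higher without passing it. The median log2 fold change of the 10 genes was 0.38, and that of all tested genes was -0.02. In CPM, every iKO value lay above every WT value in 5 of the 10 genes (Irs2 and the 4 that rose). This was also seen in 19.8% of all tested genes, and groups were apart in either direction in 39.0%. On the TPM scale (corrected for transcript length, to a common total and without the TMM factors) only Trib1 of these genes was apart. There Irs2 overlapped (7.76 to 12.55 in WT, 9.78 to 17.37 in iKO), as did Pik3r1 (9.16 to 12.47, then 12.3 to 15.39), Foxo1 and Foxo3. A change at least as large as that of Trib1 was seen in 3.88% of tested genes, and one at least as large as that of Foxo1 in 31.7%.

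**Figure D1:**
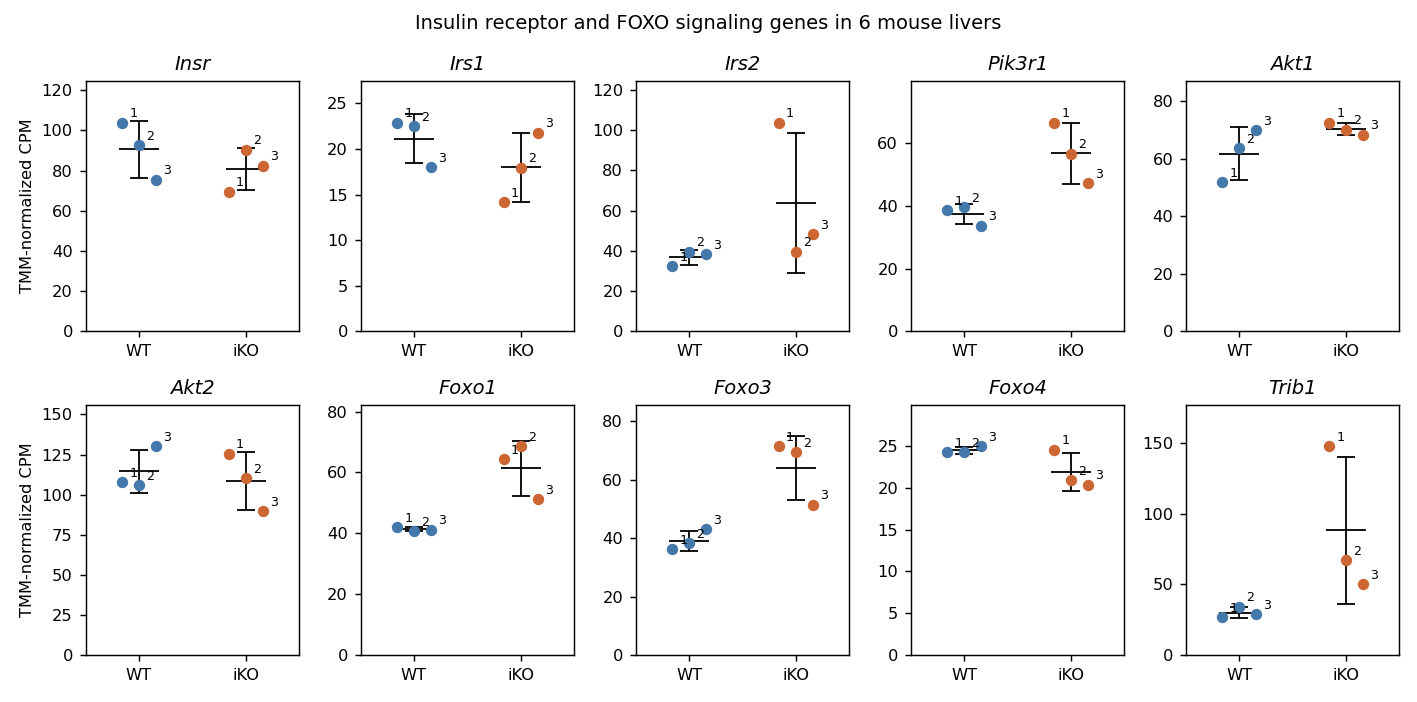
TMM-normalized CPM (vertical axes, from 0) of the 10 genes in each liver, with WT in blue and iKO in orange. Points are single livers with their replicate number, and the horizontal line and bars are the mean and SD of 3 livers. Pik3r1, Foxo1, Foxo3 and Trib1 have all 3 iKO points above the WT points, and iKO 1 stands alone at the top of the Irs2 and Trib1 panels.

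Leaving out single libraries changed these calls. Without WT 1, WT 2 or WT 3, edgeR called 0 of the 10 genes each time (4 had an unadjusted p under 0.05) and 13.7%, 3.69% and 6.79% of all genes. Without iKO 1 or iKO 2 it called only Trib1 of the 10 and 10.5% and 12.2% of all, and without iKO 3 the same 4 genes and 7.06% of all. Scaled by library totals only, it called Trib1 alone and 10.3% of all. When a term for Y-linked reads was added, or only the 4 libraries that hold such reads were used, 0 of the 10 were called by edgeR; Trib1 and Foxo3 had an unadjusted p under 0.05 in the first and Foxo3 in the second. Those fits called 1.40% and 1.05% of all genes and rest on WT 1 alone as the WT library with such reads, which is assumed to vary like the others. The sizes moved little in the fit with that term: Trib1 was at 1.73, Foxo3 at 0.82, Pik3r1 at 0.56 and Foxo1 at 0.55 on the log2 scale.

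**Figure D2:**
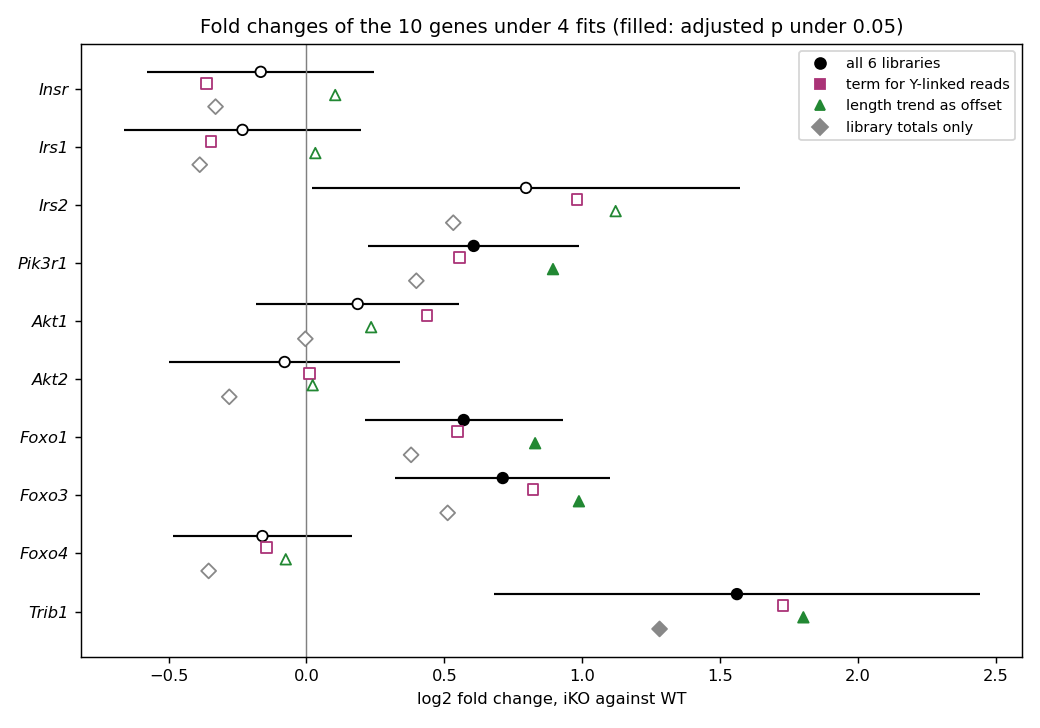
Log2 fold change of iKO against WT (horizontal axis) for the 10 genes under 4 fits, which are the fit of all 6 libraries with TMM factors, the same plus a Y-linked term, the same with the length trend as an offset, and scaling by library totals only. Bars are 95% intervals of the first fit, and filled symbols passed an adjusted p of 0.05. Trib1 lies furthest to the right in each fit, Foxo1, Foxo3 and Pik3r1 stay right of 0, and Insr, Irs1, Akt1 and Akt2 lie on either side of 0.

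The receptor's values overlapped between the groups. Insr (gene ID 16337), which binds insulin and starts the cascade, gave 104, 92.5 and 75.4 CPM in WT livers and 69.5, 90.3 and 82.4 in iKO livers. Insr had fractional expected counts in 5 libraries, a mark of reads split between genes. That adds uncertainty to these values, their test and the ratio below. The groups overlapped, and the log2 fold change was -0.17 (SE 0.18, 95% interval -0.58 to 0.25, adjusted p = 0.560). This interval just reaches a decrease of the size that Foxo1 rose by (0.57), but not one of the size that Foxo3 rose by (0.71). Its close relative Igf1r, which hepatocytes express little of, was read at 3.19, 5.11 and 4.40 CPM in WT livers and 3.40, 3.38 and 6.33 in iKO livers (log2 fold change 0.05, SE 0.32). Per transcript length the ratio of Insr to Igf1r was 40.0, 21.9 and 20.2 in WT and 24.1, 31.0 and 15.2 in iKO, and the ranges overlapped (exact permutation test, two-sided p = 0.7).

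The 2 adaptors parted in direction, and neither passed the test. Irs1 (16367), which in liver responds mainly after feeding, was read at 22.9, 22.5 and 18.0 CPM in WT livers and 14.2, 18.0 and 21.8 in iKO livers, with overlapping groups (log2 fold change -0.23, SE 0.19, interval -0.66 to 0.20, adjusted p = 0.430). Irs2 (384783), a gene that FOXO factors raise in fasting, was read at 32.3, 39.5 and 38.3 CPM in WT livers and 104, 39.6 and 48.1 in iKO livers. Its iKO 2 value was barely above the highest WT value, and iKO 1 was more than all the rest. The log2 fold change was 0.80 (SE 0.34, interval 0.02 to 1.57, adjusted p = 0.141), and 0.26 without iKO 1. On the TPM scale, which corrects for transcript length, the ratio of Irs2 to Irs1 was 1.91, 2.37 and 2.88 in WT and 9.87, 2.98 and 2.99 in iKO. All 3 iKO ratios were above the WT ratios by a mean of 0.92 on the log2 scale (exact two-sided p = 0.1, the smallest that 3 against 3 allows, 0.25 adjusted over the 5 ratios compared), and by 0.34 without iKO 1.

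Pik3r1 (18708) encodes p85α, the regulatory subunit that docks PI3K on the IRS proteins, with its splice forms p55α and p50α. It was read at 38.6, 39.6 and 33.6 CPM in WT livers and 66.5, 56.6 and 47.1 in iKO livers. The groups did not overlap in CPM, though they did in TPM. The gene rose by 0.61 on the log2 scale (SE 0.17, interval 0.22 to 0.99, adjusted p = 0.0424). Its expected counts were not whole numbers in 5 libraries, so some reads were shared with other genes in the authors' counting and the level is less certain. The sister subunit Pik3r2 (p85β) was read at 27.0, 25.2 and 29.0 CPM in WT livers and 28.2, 19.1 and 23.4 in iKO livers and did not pass the test (log2 fold change -0.20, SE 0.17). As a share of the TPM of Pik3r1, Pik3r2 and Pik3r3 together, Pik3r1 made up 39.4%, 40.6% and 34.3% in WT and 54.0%, 59.5% and 50.7% in iKO. The summed TPM of the 3 genes overlapped between the groups, at 24.2 to 30.7 in WT and 22.8 to 26.9 in iKO. Without any one library other than iKO 3, the call on Pik3r1 was lost (adjusted p up to 0.130), and scaled by library totals only it was at 0.40 (adjusted p = 0.146).

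Both AKT kinases stayed within the spread between livers. Akt1 (11651), the broadly expressed isoform, was read at 51.9, 63.6 and 69.9 CPM in WT livers and 72.5, 70.1 and 68.4 in iKO livers (log2 fold change 0.19, SE 0.16, interval -0.18 to 0.55, adjusted p = 0.462). Akt2 (11652), the isoform most tied to glucose handling, was read at 108, 106 and 130 CPM in WT livers and 126, 110 and 89.6 in iKO livers (log2 fold change -0.08, SE 0.19, interval -0.50 to 0.34, adjusted p = 0.801). The groups overlapped for both. The ratio of Akt2 to Akt1 per length was 1.84, 1.46 and 1.65 in WT and 1.48, 1.37 and 1.12 in iKO, lower on average but overlapping (difference of -0.32 on the log2 scale, exact two-sided p = 0.2, 0.333 adjusted).

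Foxo1 (56458), the FOXO factor most tied to hepatic glucose output, was read at 42.0, 40.8 and 41.2 CPM in WT livers and 64.3, 68.6 and 51.1 in iKO livers. The WT livers had an SD of 0.603 CPM, the iKO livers were all above them, and the gene rose by 0.57 on the log2 scale (SE 0.16, interval 0.21 to 0.93, adjusted p = 0.0421). Foxo3 (56484), which overlaps with Foxo1 in the genes it binds, was read at 36.3, 38.2 and 43.0 CPM in WT livers and 71.4, 69.5 and 51.5 in iKO livers. These groups were also apart, and Foxo3 rose by 0.71 (SE 0.17, interval 0.32 to 1.10, adjusted p = 0.0271). In both genes iKO 3 was the lowest of its group. Foxo4 (54601), the other family member of liver, was read at 24.3, 24.3 and 25.0 CPM in WT livers and 24.6, 20.9 and 20.4 in iKO livers, with overlapping groups (log2 fold change -0.16, SE 0.15, interval -0.49 to 0.17, adjusted p = 0.477).

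The make-up of the FOXO family per transcript length differed between the groups in all livers. Foxo4 took 38.0%, 38.5% and 37.2% of the family's TPM in WT and 29.5%, 25.1% and 31.8% in iKO. Foxo3 took 25.3%, 26.5% and 28.6% in WT and 33.1%, 33.5% and 30.3% in iKO, and Foxo1 36.6%, 35.0% and 34.3% in WT and 37.3%, 41.3% and 37.7% in iKO. Each of these 3 shares was apart between the groups, though for Foxo1 by less than 1 percentage point. The shares add up to a whole, so they are not separate observations, and no test was run on them. In CPM, groups were apart in either direction in 39.0% of all tested genes. A share within a family does not depend on how libraries are scaled, and shows unequal change rather than which gene changed. The ratio of Foxo1 to Foxo3 fell within overlapping ranges (difference of -0.14 on the log2 scale, exact two-sided p = 0.3). The summed TPM of the family also overlapped, at 33.7 to 45.3 in WT and 35.4 to 50.2 in iKO. On the TPM scale itself, which a few abundant genes can shift, Foxo1 and Foxo3 overlapped between groups, at 12.4 to 15.9 in WT and 13.2 to 20.8 in iKO for Foxo1, and 8.54 to 11.99 and 11.7 to 16.8 for Foxo3. Scaled by library totals only, Foxo1 was at 0.38 (adjusted p = 0.173) and Foxo3 at 0.51 (adjusted p = 0.0852); that scaling moved the median of all genes to -0.20. Without any one library other than iKO 3 both calls were lost (adjusted p up to 0.161 for Foxo1 and 0.114 for Foxo3).

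**Figure D3:**
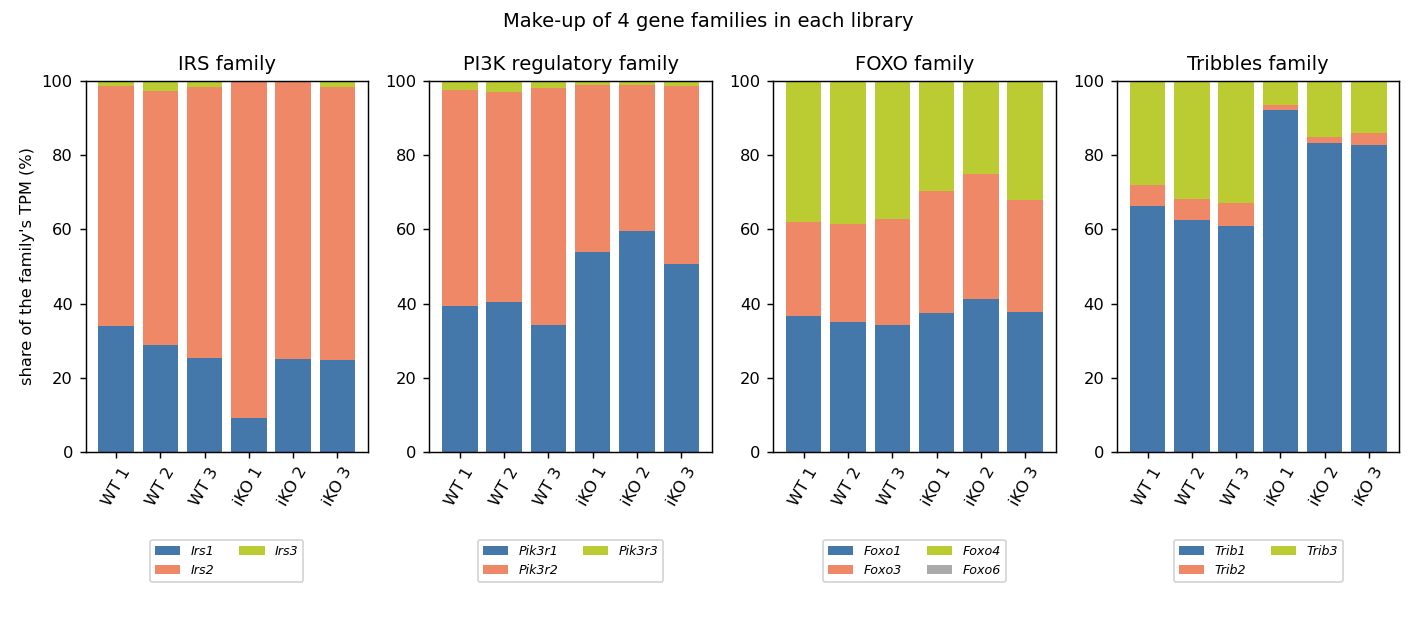
Share of each gene in the summed TPM of its family (vertical axis, percent) in each of the 6 libraries (horizontal axis), for the IRS adaptors, the PI3K regulatory subunits, the FOXO factors and the Tribbles pseudokinases. Each bar is a single library and adds to the whole family. The Pik3r1, Foxo3 and Trib1 segments are taller and the Pik3r2, Foxo4 and Trib3 segments shorter in every iKO bar than in every WT bar. No test was run on these shares.

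Trib1 (211770) rose most of the 10. It was read at 26.6, 34.1 and 28.9 CPM in WT livers and 148, 67.0 and 50.2 in iKO livers, a rise of 1.56 on the log2 scale (SE 0.38, interval 0.68 to 2.44, adjusted p = 0.0333). The groups did not overlap in CPM or in TPM (10.8, 18.4 and 13.3 in WT, 42.0, 28.1 and 21.6 in iKO). The iKO livers spread widely, with iKO 1 far above iKO 2, and without iKO 1 the log2 fold change was 0.98 (adjusted p = 0.0116). Within the Tribbles family Trib1 took 66.3%, 62.5% and 60.8% of the TPM in WT and 92.3%, 83.4% and 82.6% in iKO. Trib3, a stress-induced relative that binds AKT, was at 5.68, 8.75 and 7.83 CPM in WT livers and 5.13, 6.11 and 4.25 in iKO livers and did not pass the test (log2 fold change -0.52, SE 0.24, adjusted p = 0.165). The call on Trib1 was lost without any one WT library (adjusted p 0.0775 to 0.118) and in the 4 libraries with Y-linked reads (log2 fold change 1.75, adjusted p = 0.414).

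The RNA of the C/EBP proteins that Trib1 hands to COP1 was read beside it. Protein levels, on which COP1 acts, were not measured. Cebpa, the hepatocyte transcription factor best known as a Trib1 client, was at 359, 341 and 400 CPM in WT livers and 680, 548 and 381 in iKO livers and did not pass the test (log2 fold change 0.55, SE 0.24, adjusted p = 0.147). The ratio of Trib1 to Cebpa per length was 0.0482, 0.0651 and 0.0470 in WT and 0.141, 0.0795 and 0.0856 in iKO, all iKO values above all WT values (difference of 0.90 on the log2 scale, exact two-sided p = 0.1, 0.25 adjusted). Cebpb, its stress-responsive relative, rose from 96.5, 70.8 and 81.3 CPM to 441, 321 and 233 CPM (log2 fold change 2.00, SE 0.26, adjusted p = 0.00238). Of the 7 tested Tribbles, COP1 and C/EBP genes beside Trib1, 1 rose (Cebpb), 1 fell (Dcaf7, a WD-repeat scaffold, -0.83, adjusted p = 0.0153) and 5 did not pass the test, with a median of -0.22. Among all tested genes 7.31% were called higher and 8.07% lower. Cebpb kept its call without any one library, and Dcaf7 lost it without WT 2 or iKO 3 (adjusted p up to 0.0824) and with a length offset (0.0590). With the term for Y-linked reads Cebpb was at 1.78 and Dcaf7 at -0.70, and neither was called.

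Ordered by mean TPM, which is the scale on which genes can be compared, the WT livers ran Akt2 (71.4), Akt1 (44.1), Insr (18.0), Foxo4 (15.0), Trib1 (14.2), Foxo1 (14.0), Foxo3 (10.6), Pik3r1 (10.4), Irs2 (10.2) and Irs1 (4.33). Neighbours in that order were apart in their ranges for Akt2 and Akt1, Akt1 and Insr, Foxo1 and Foxo3, and Irs2 and Irs1, and overlapped otherwise. In the livers labelled iKO Akt2 (53.2) and Akt1 (40.8) again led and Irs1 (3.05) was again last. Insr (13.2) took rank 7 there against 3 in WT, with overlapping TPM ranges in the groups. Trib1 (30.6) took rank 3 against 5, Foxo1 rank 4 against 6, and Foxo4 rank 9 against 4. The TPM ranges of the groups overlapped for Foxo1 and Foxo4 too. Ranks 4 to 9 in iKO lay between means of 16.6 and 12.2, with SDs of 1.55 to 4.19, so their order is loose.

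Transcript length moved with the fold changes of all genes. Across the 12995 genes with a length, longer transcripts had lower fold changes (Spearman rho -0.35, across genes, which are not independent replicates). Insr, Irs1, Irs2, Pik3r1 and Foxo3 are longer than 91.1% to 97.8% of them, Foxo1 longer than 86.4% and Trib1 longer than 70.8%. With each library's length trend as an offset the 4 rises were larger, at 1.80 for Trib1 (adjusted p = 0.0465), 0.99 for Foxo3 (0.0169), 0.89 for Pik3r1 (0.0200) and 0.83 for Foxo1 (0.0169). Insr was then at 0.10 and Irs1 at 0.03, both on the other side of 0 from the fit without it.

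The rest of the pathway was read from 10 lists with 153 tested genes, of which 19 were called higher and 18 lower by edgeR, beside 7.31% higher and 8.07% lower among all tested genes. DESeq2 called 23 higher and 21 lower, adding Acacb, Cpt1a, Ctnnb1, G6pc, Pik3c2g, Socs2 and Thrsp, which are named after their values were seen. These lists were compiled with results of these data known, so their counts are descriptions. Calls in these lists that held without any one library were lost with the term for Y-linked reads, except that on Cited2. Near the receptor, 0 of 11 tested adaptors and partners rose and 1 fell, Gab1, a docking protein (13.6, 14.1 and 16.9 CPM in WT, 8.38, 10.7 and 9.41 in iKO, log2 fold change -0.64, adjusted p = 0.0379, with shared reads in all 6 libraries). When 1 library was left out, the call on Gab1 held only without WT 1 or iKO 2. It was also lost with the length offset (-0.43, adjusted p = 0.121), and with library totals only, limma-trend and the replicate block (0.0587 to 0.0740). Among 14 brakes on the receptor edgeR called 1 higher and 1 lower, DESeq2 2 higher (adding Socs2 at 1.61, adjusted p = 0.000462, against 0.0569 by edgeR), and limma-voom and edgeR with no filter 0 higher. Socs3, a suppressor of cytokine signalling that also binds the receptor, rose from 15.8, 11.6 and 17.8 CPM to 99.8, 65.8 and 23.5 CPM (2.06 on the log2 scale, SE 0.51, adjusted p = 0.0444). Ptprf, a receptor-type tyrosine phosphatase, fell from 204, 271 and 265 CPM to 85.1, 101 and 68.4 CPM (-1.54, SE 0.21, adjusted p = 0.00295). Ptprf kept its call without any one library (adjusted p up to 0.0155), while Socs3 kept it only without iKO 3 (up to 0.180). Socs3 was also short of the threshold with limma-voom, no filter, the replicate block and the length offset (adjusted p from 0.0557 to 0.0743).

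Of 11 other PI3K subunits 1 rose and 1 fell (7.31% and 8.07% among all tested genes), with a median of -0.35. The 2 called genes form a complex apart from the insulin-responsive enzyme: Pik3c3 (Vps34), the catalytic subunit that serves autophagy and endosomes, was read at 57.0, 67.5 and 68.1 CPM in WT livers and 521, 158 and 485 in iKO livers (2.59, adjusted p = 0.00759), and its partner Pik3r4 (Vps15) at 23.3, 22.3 and 21.6 CPM in WT livers and 12.8, 14.4 and 11.0 in iKO livers (-0.81, adjusted p = 0.0121). Reads of Pik3c3 were shared in every library, so its level is uncertain. Pik3c3 kept its call without any one library, and Pik3r4 lost it without WT 2 or iKO 3 (adjusted p up to 0.0665). None of the 7 tested phosphatases of PIP3, the lipid that PI3K makes, was called by edgeR, 0 had an unadjusted p under 0.05, and 0 were called by DESeq2 or limma-voom, though Inpp5d was called without WT 1 (adjusted p = 0.0382). The 2 with the smallest p were Inpp5d (SHIP1) at -0.58 (SE 0.27, adjusted p = 0.171), a gene of blood cells that was at 0.11 once Y-linked reads were a term, and Inpp4a at 0.28 (SE 0.15, adjusted p = 0.240).

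Among 15 kinases and phosphatases that act on AKT, 1 rose and 0 fell (7.31% and 8.07% among all tested genes), with a median of -0.04. It was Ppp2r5b, a regulatory subunit of the phosphatase PP2A (9.88, 7.86 and 8.22 CPM in WT, 14.7, 13.1 and 15.3 in iKO, 0.73, adjusted p = 0.0230), and its call was lost without WT 2, WT 3 or iKO 3 (up to 0.116). Of 19 AKT substrates and mTORC1 genes 4 rose and 3 fell. Eif4ebp1, the repressor of translation that mTORC1 inactivates, rose from 40.0, 35.7 and 45.9 CPM to 102, 70.1 and 89.2 CPM (1.10, SE 0.19, adjusted p = 0.00747). Pfkfb2, which sets the level of the glycolytic activator fructose bisphosphate, rose by 1.06 (adjusted p = 0.0274, shared reads in all 6 libraries), Tsc1, a brake on mTORC1, fell by 0.94 (33.6, 32.2 and 33.8 CPM, then 17.3, 18.9 and 15.7, adjusted p = 0.00473), and Tbc1d1, a Rab regulator of glucose transport, fell by 1.07 (adjusted p = 0.0264). The other 3 called genes of that list, named after their values were seen, were Gsk3a (0.77), Rheb (0.56) and Rptor (-0.74). Eif4ebp1 and Tsc1 kept the call without any one library, Pfkfb2 only without WT 1 or iKO 1 (up to 0.0840), and Tbc1d1 and Rheb only without WT 1 (up to 0.118 and 0.163). Gsk3a lost it without each WT library and Rptor without WT 2, WT 3 or iKO 3. With the length offset Eif4ebp1 was at 0.73 and still called, Rptor was at -0.48 (adjusted p = 0.101) and Rheb at 0.39 (0.155).

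Of 21 tested partners and modifiers of FOXO proteins 3 rose and 1 fell (7.31% and 8.07% among all tested genes), with a median of 0.12. Foxk2 and Foxk1, forkhead factors that share DNA elements with FOXO and also respond to insulin, went opposite ways. Foxk2 was at 16.5, 15.3 and 14.6 CPM in WT livers and 32.0, 23.8 and 24.9 in iKO livers (0.80, SE 0.17, adjusted p = 0.0150), and Foxk1 at 28.6, 31.9 and 31.7 CPM in WT livers and 18.0, 20.3 and 17.3 in iKO livers (-0.73, SE 0.15, adjusted p = 0.0128, shared reads in all 6 libraries). Crebbp, which acetylates FOXO, rose by 0.63 (adjusted p = 0.0454), and Ywhaz, a 14-3-3 protein of the family that keeps phosphorylated FOXO in the cytoplasm, by 0.56 (adjusted p = 0.0425). With the length offset Foxk1 was at -0.46 and lost the call (adjusted p = 0.0768). Foxk1 also lost it without WT 2 or iKO 3 (adjusted p up to 0.0830) and Foxk2 without WT 2 or WT 3 (0.0737), while Crebbp kept it only without WT 1 or iKO 2 (0.154) and Ywhaz lost it whichever library was left out (0.184). With library totals only and with limma-trend, Foxk2 (adjusted p from 0.0552 to 0.0775), Crebbp (0.145 to 0.295) and Ywhaz (0.116 to 0.136) lost the call, as did Ppp2r5b (0.125 to 0.129), Pfkfb2 (0.110 to 0.148) and Tbc1d1 (0.0510 to 0.0954) above. Outside those fits, upper-quartile factors ended the call on Crebbp (0.0510), the replicate block those on Pfkfb2 (0.0521) and Ywhaz (0.0755), and no filter that on Ywhaz (0.0543).

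Genes that FOXO factors are known to raise moved in both directions. Of 31 tested (of 32 listed) 8 rose, 5 fell and 18 did not pass the test, against 7.31% higher and 8.07% lower among all genes, and the median was 0.28. DESeq2 called 10 higher and 5 lower. Pck1, the gluconeogenic enzyme PEPCK, rose from 833, 1062 and 779 CPM to 3098, 4200 and 3306 CPM (1.99, SE 0.25, adjusted p = 0.00218), with shared reads in all 6 libraries. Igfbp1, the insulin-repressed binding protein of IGF1 whose promoter is printed above, rose from 112, 121 and 127 CPM to 429, 234 and 339 CPM (1.47, SE 0.24, adjusted p = 0.00595). Pnpla2, the triglyceride lipase ATGL, rose by 1.55 (adjusted p = 0.00138), and Tat, tyrosine aminotransferase, by 1.64 (adjusted p = 0.00571); Tat also stands in the glucocorticoid list above. Each of these 4 kept its call without any one library.

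G6pc, the last enzyme of glucose release, was at 222, 130 and 355 CPM in WT livers and 574, 349 and 402 in iKO livers, with overlapping groups (log2 fold change 0.91, SE 0.35, adjusted p = 0.110 by edgeR, 0.0332 by DESeq2, and 0.0441 by edgeR without WT 3). Ppargc1a, the coactivator PGC-1α, was at 7.56, 10.1 and 6.85 CPM in WT livers and 7.07, 14.3 and 17.2 in iKO livers (0.66, SE 0.31, adjusted p = 0.171, and 0.0220 without iKO 1). Sesn3, an AKT-promoting sestrin and FOXO target, fell from 3.82, 5.46 and 3.82 CPM to 0.799, 1.72 and 1.19 CPM (-1.81, SE 0.34, adjusted p = 0.0109, and up to 0.0589, without WT 2). The other called genes, named after their values were seen, were Bnip3 (1.32), Klf15 (1.02), Map1lc3b (0.95) and Tfeb (0.69) among those higher, and Cited2 (-1.10), Rbl2 (-1.08), Ccng2 (-1.05) and Fbxo32 (-1.05) among those lower. Bnip3, Klf15, Cited2 and Rbl2 kept the call without any one library, whereas Map1lc3b lost it without WT 2 or WT 3, Ccng2 without WT 2 or iKO 3, Tfeb without every library but iKO 2, and Fbxo32 without every library but iKO 3. With library totals only Tfeb (adjusted p = 0.142) and Fbxo32 (0.0749) were not called, and with the length offset Fbxo32 (0.0748) was not. Sesn3 was at -1.04, and called, on log2(FPKM + 1). In the Y-linked term fit 1 of the 31, Cited2, was called (15 at an unadjusted p under 0.05), and in the 4 libraries with such reads 0 were called by edgeR (13 unadjusted).

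**Figure D4:**
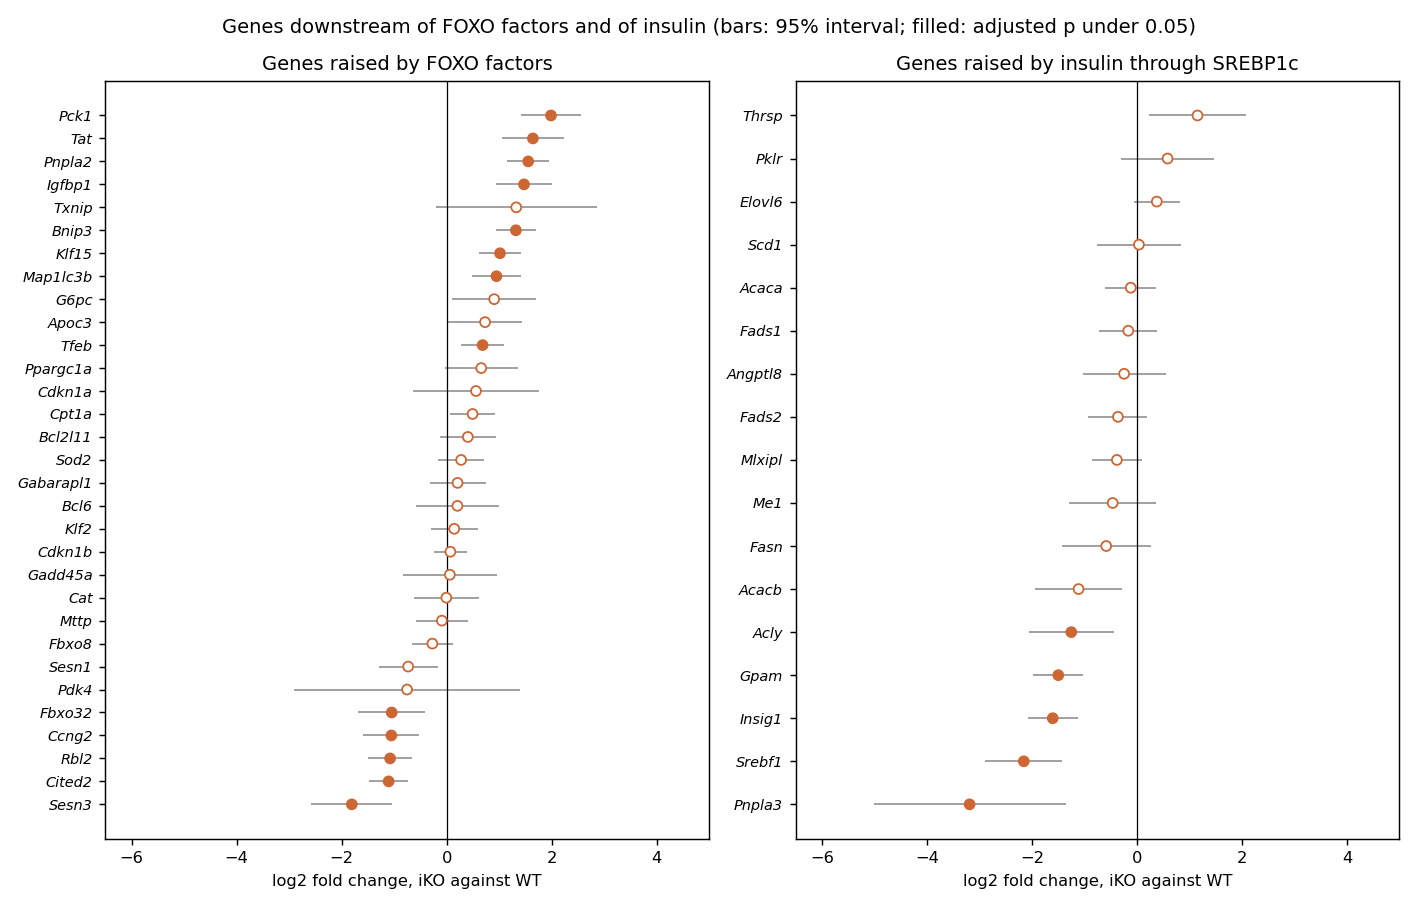
Log2 fold change of iKO against WT (horizontal axes) for each tested gene of 2 downstream lists, those raised by FOXO factors (left, 31 genes) and those raised by insulin through SREBP1c (right, 17 genes). Bars are 95% intervals and filled points passed an adjusted p of 0.05. Pck1, Tat, Pnpla2 and Igfbp1 lead the left panel while Sesn3 is lowest, and the 5 filled points on the right all lie below 0.

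Among genes that insulin raises through SREBP1c, each edgeR call was a fall. Of 17 tested 5 fell and 0 rose, beside 8.07% lower and 7.31% higher among all genes, with a median of -0.38. DESeq2 called 6 lower and 1 higher. Thrsp, a lipogenic gene named after its values were seen, was at 1.15 (SE 0.40, adjusted p = 0.0854 by edgeR and 0.0108 by DESeq2). Srebf1, which encodes SREBP1c, fell from 282, 456 and 644 CPM to 128, 75.0 and 107 CPM (-2.15, SE 0.33, adjusted p = 0.00469, shared reads in all 6 libraries). Insig1, the retention protein of SREBPs, fell by 1.60 (adjusted p = 0.00251), and Gpam, the first enzyme of glycerolipid synthesis, by 1.50 (adjusted p = 0.00329). Pnpla3, a lipid droplet protein, was at 3.29, 15.5 and 21.9 CPM in WT livers and 1.88, 0.748 and 1.86 in iKO livers (-3.19, SE 0.76, adjusted p = 0.0401, shared reads in all 6 libraries), with WT 1, the WT library with Y-linked reads, close to the iKO values. The remaining one was Acly (-1.25), named after its values were seen. Srebf1, Insig1 and Gpam kept the call without any one library, while Pnpla3 and Acly kept it only without WT 1 (adjusted p up to 0.140 and 0.122), and Acly was not called with the length offset (0.136) or the replicate block (0.0914). In the Y-linked term fit 0 of the 17 were called by edgeR (5 at an unadjusted p under 0.05), and Srebf1 was at -1.45 and Pnpla3 at -1.15. Pnpla3 was also short of the threshold with limma-voom (adjusted p = 0.144), no filter, limma-trend with a pseudocount of 1, the replicate block and the length offset.

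The genes whose profile over the 6 libraries was most like each of the 4 that rose were taken from outside all lists by Pearson's r of log2 CPM. For Trib1 they were Hspb8 (r = 0.992), Cyp4f15 (0.991) and P4ha1 (0.988), and for Pik3r1 Shld1 (0.996), Mapk1ip1 (0.995) and Map3k5 (0.988). For Foxo1 they were Pdxdc1 (0.989), Riox1 (0.989) and Klhl21 (0.988), and for Foxo3 Tns2, Gne and Rrp8 (0.989 each). With 6 libraries and 13160 genes such values are a description of shared profiles. No gene stood among the 3 nearest of more than 1 of the 4.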

How the data were processed

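Per the labels' protocols, liver was snap frozen and its total RNA taken up in Trizol. The tools named per the submitters' processing notes are RSEM 1.2.12, Bowtie2 2.2.5 and HISAT2 2.0.4, and the build is mm9; strand use in counting is not stated there. The authors deposited expected counts per gene, which are estimates that split shared reads (64.9% to 68.3% whole within 0.001). Beside them the authors deposited FPKM (by library size and length) and TPM (by length, to a common total). Totals ran from 18139500 to 19912000. Each pair of libraries differed by more than sampling noise.

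The rounded expected counts went into edgeR 4.0.16 under R 4.3.3, with filterByExpr, TMM factors (0.780 for iKO 1 to 1.18 for WT 2), robust quasi-likelihood F test over 13160 genes, Benjamini-Hochberg adjustment, threshold 0.05 ("called"). "Rose" and "fell" are used of called genes. "Shared reads" means expected counts that are not whole. A standard error is the absolute log2 fold change divided by the root of F. Family shares and ratios used TPM, the ratios with an exact two-sided permutation test. Promoter sequences are from RefSeq; those of another build than mm9 were not joined to reads.

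The members, lists and tests were chosen with earlier results of these data known. From the pathway lists 3 genes were left out and are not reported here; of the 157 that remain 153 were tested. The rule for names took all 10 genes, up to 4 called genes per list by size with a mean of at least 1 CPM (if 0 were called, the 2 with the smallest p), 8 fixed genes and 3 like-profile genes for each called member. Alternatives were RLE and upper-quartile factors, library totals only, no filter, DESeq2 1.42.0, limma-trend (limma 3.58.1) on FPKM with pseudocounts of 1 and 0.1, limma-voom, the replicate number as a block, each library left out in turn, a Y-linked term, only those 4 libraries where Ddx3y and Kdm5d sum to over 10 counts, and a length offset. On simulated data of this comparison (12985 genes) 49% of 2-fold and 95% of 4-fold changes were recovered, 0 in the wrong direction, and 16 of 160 calls were false. The simulation changed 100 genes at each fold and drew counts independently for each gene. It held no split in Y-linked reads and no length trend, so its rates need not hold for the livers.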

Additional observations from a re-analysis of the deposited data

How the results depend on the processing

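The number of the 10 genes called was 4 with RLE or upper-quartile factors, no filter, DESeq2, limma-voom and the length offset. It was 1 with library totals only, with limma-trend on log2(FPKM + 1) and on log2(FPKM + 0.1), and with the replicate block, Trib1 each time. It was 0 with the term for Y-linked reads and 0 in the libraries with such reads, and 0 to 4 when 1 library was left out. Calls over all genes went from 2024 to 184 with the Y-linked term and 143 in those libraries, and from 491 to 1840 when 1 library was left out (491 without WT 2, 908 without WT 3, 946 without iKO 3). The pathway lists went from 37 called to 1 and 0 in those 2 fits, and 16 to 34 when 1 library was left out (16 without WT 2, 22 without WT 3, 24 without iKO 3). With the replicate number as a block 1710 genes were called, 29 in the pathway lists. Same-numbered livers correlated in their deviations from the group means by 0.21, 0.22 and 0.05, and WT 2 more with iKO 3 (0.33) than with iKO 2, so the numbers were not taken to pair them.

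Direction turned, on the log2 scale, for genes that did not pass the test. With the length offset Insr was at 0.10, Irs1 at 0.032 and Akt2 at 0.023. Akt1 was at -0.0040 with library totals only. Akt2 was at 0.011 with the Y-linked term, at 0.020 when only libraries holding Y-linked reads were used, and between -0.19 and 0.074 when 1 library was left out (0.020 without WT 3, 0.074 without iKO 3). Inpp5d was at 0.11 in both Y-linked fits. Igf1r (0.05) was at -0.0063 with upper-quartile factors, -0.11 with library totals only, -0.019 and -0.081 on log2(FPKM + 1) and log2(FPKM + 0.1), and between -0.29 and 0.23 when 1 library was left out (-0.12 without WT 1, -0.29 without iKO 3). The Insr to Igf1r ratio turned from -0.21 to 0.095 without WT 1 and 0.068 without iKO 3, in a range of -0.45 to 0.095 when 1 library was left out. The cause was not tested in any of these. The other motif, the insulin response core, was found in 2 of the 7 genes with a promoter entry against 1 for the FOXO core. No direction of Trib1, Foxo1, Foxo3, Pik3r1 or Irs2 turned in any alternative. The 10 genes were read at 14.2 CPM or more in every library, so the spread between 3 livers a group, more than counting error, sets their intervals.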
